A study of Mus musculus with 6 samples.

Results

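Translation initiation and elongation factors are the proteins that load ribosomes onto messenger RNA and drive peptide synthesis. Their genes were followed here in the connective tissue progenitors of skeletal muscle known as fibro-adipogenic progenitors (FAPs), which carry the receptor Pdgfra, from sham and from overloaded plantaris, a calf muscle. The set held every protein-coding gene of the count table whose symbol begins with Eif1 to Eif6, Eef1 or Eef2, without the eIF2 kinases (Eif2ak), Eif4enif1 and names beginning with Eef2k. This gave 64 of 54100 genes in the table. Counts were present for 62 of them, and 47 had enough counts to be tested among the 7207 genes tested in all. All cells came from C57BL/6 mice and were sorted as Pdgfra+, with 1000 cells to a tube, and libraries followed a published CEL-Seq2 type of protocol, which reads transcripts near their 3′ end. There were 3 libraries from sham and 3 from overloaded muscle. The sources used here do not give how overload was imposed, how long it lasted, the age and sex of the mice or whether replicates were separate animals. The p-values therefore rest on differences among these libraries alone, and those may be technical. In a sorted bulk sample, fewer cells of a type and less RNA per cell cannot be told apart.

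Initiation begins when eIF2 brings the initiator tRNA to the small ribosomal subunit, together with eIF1, eIF1A, eIF3 and eIF5. The eIF4 factors bind the cap of the messenger RNA and unwind its leader, and eIF5B joins the large subunit at the start codon. In elongation, eEF1A delivers each aminoacyl-tRNA, the eEF1B subunits recharge eEF1A with GTP, and eEF2 moves the ribosome along. Cells adjust this machinery through phosphorylation of eIF2 and through the repressors of eIF4E, which the kinase complex mTORC1 controls.

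Total counts were 500402 to 754456 in sham and 850857 to 1124210 in overloaded libraries, and the groups did not overlap (exact two-sided permutation p = 0.1, the smallest that 3 against 3 can give). All 12 FAP markers listed had counts, 2 of them were called higher and 6 lower, and their summed level, in TMM-scaled counts per 1000000 counts of tested genes (CPM), was 46196 to 53448 in sham and 66768 to 74902 in overloaded libraries. The 9 endothelial markers gave 122 to 231 CPM in sham and 33.5 to 90.3 CPM in overloaded libraries, and the 9 muscle fibre markers 38.7 to 70.5 and 25.01 to 32.4 CPM, all of them with counts. The 10 leukocyte markers gave 9.42 to 20.7 and 0 to 18.8 CPM, with Adgre1, Lyz2, C1qa and C1qb at 0. Sums were 143 to 195 and 108 to 165 CPM for 9 pericyte and smooth muscle markers, 4.30 to 10.8 and 2.31 to 11.3 CPM for 7 satellite cell markers (Myod1 at 0), and 85.9 to 99.6 and 57.7 to 178 CPM for 6 tenocyte markers. Endothelial and muscle fibre sums were lower in every overloaded library, and their part in the results was not tested. Reads on olfactory and vomeronasal receptor genes, a class of the nose with no known role in FAPs, made up 1348 ± 526 CPM of all counts, unscaled, in sham and 544 ± 476 in overloaded libraries (SD, n = 3, exact two-sided permutation p = 0.2).

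Translation factor transcripts were more abundant in overloaded FAPs for 21 of the 47 tested genes, less abundant for 2, and not called for 24. Of all tested genes 29.3% were called in either direction, 15.0% were higher and 14.3% lower, against 44.7% higher among the tested factors (edgeR's quasi-likelihood test, adjusted p under 0.05 over all tested genes, here and throughout). The median log2 fold change, overloaded against sham, was 0.61 for the tested factors and -0.02 for all tested genes, and 76.6% of the factors lay above 0 against 48.8% of all. Separation of the groups was complete for 24 of the 47 (51.1%), against 41.5% of all tested genes (21.2% with the overloaded group above). The 64 genes together took 0.559% to 0.651% of all counts in sham libraries and 0.694% to 0.789% in overloaded ones. The rise was spread over complexes: it reached subunits of eIF2, eIF3 and eEF1, along with Eif6, Eif5a, Eif4a1 and the eIF4E repressor Eif4ebp1, while Eef1a1, Eef2 and Eif4e were not called and Eif1 and Eif4a2 fell. With the receptor read share of each library as a covariate, 8 of the 47 were called higher and 0 lower by edgeR (17 and 0 at an unadjusted p under 0.05), with a median log2 fold change of 0.69, and 6.91% of all tested genes were called higher. Those 8 were Eif1ax, Eif6, Eif3i, Eif4a3, Eif4ebp1, Eif5a, Eef1b2 and Eef1e1. The same 8 were called higher in every alternative analysis that tested them, but the covariate fit was itself among these and made the fewest calls. Eif4ebp1 and Eef1e1 were not tested at a minimum count of 30. For 3 tested factors, Eif1ad, Eif4ebp1 and Eef1e1, no sham library held 10 counts, so they entered the test through their overloaded counts.

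**Figure D1:**
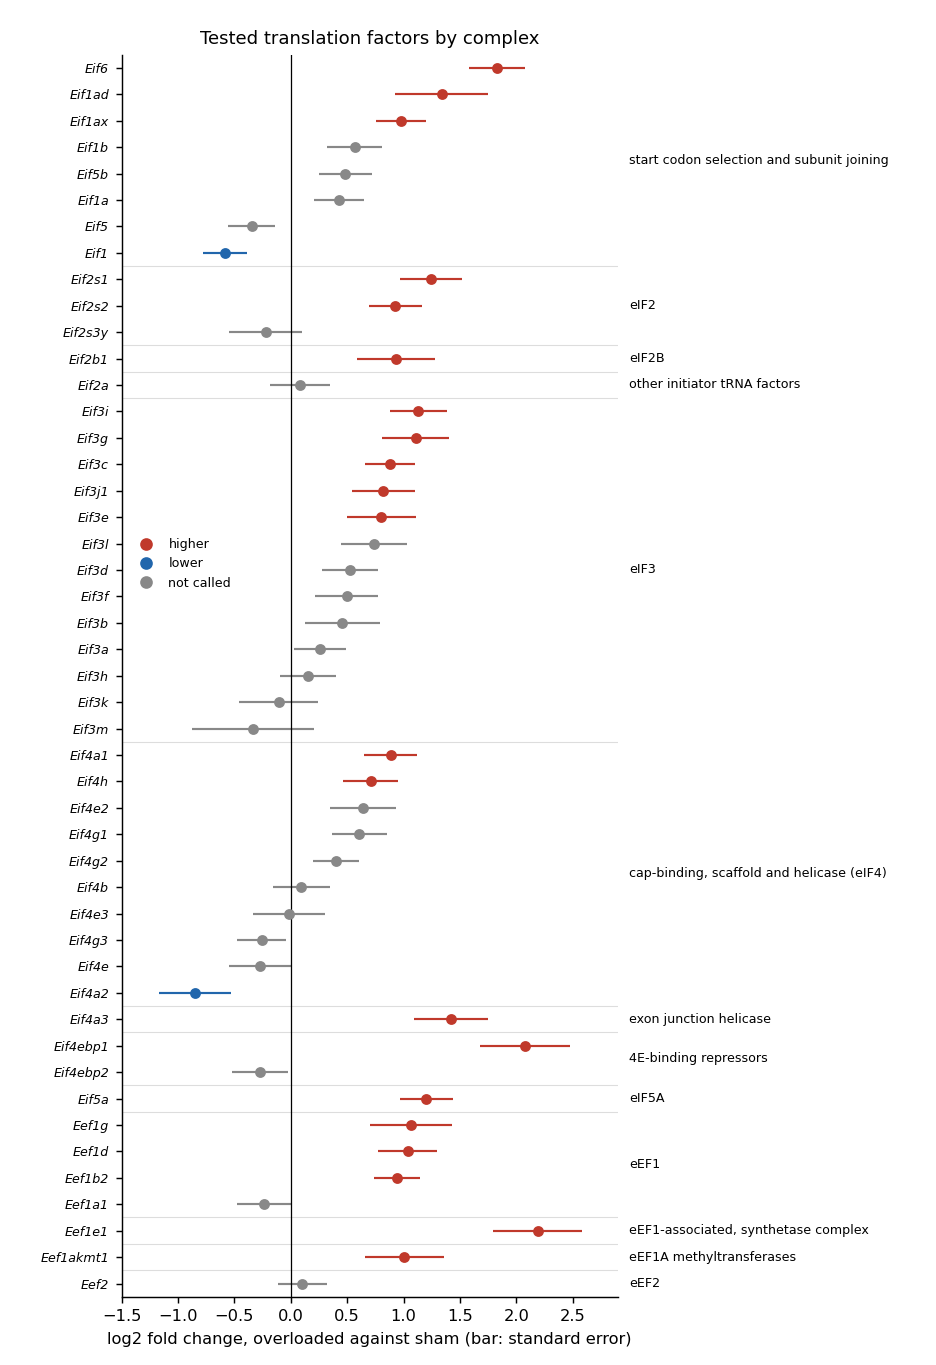
Log2 fold change of overloaded against sham (x axis) for each of the 47 tested translation factors (y axis), grouped by complex; points are estimates, bars are standard errors, and colours give the call. Most points lie to the right of 0, with Eef1e1 at 2.19 and Eif4ebp1 at 2.08 farthest, and the 2 genes called lower, Eif1 and Eif4a2, lie at -0.59 and -0.85. Eef1e1 and Eif4ebp1 entered the test through their overloaded counts.

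**Figure D2:**
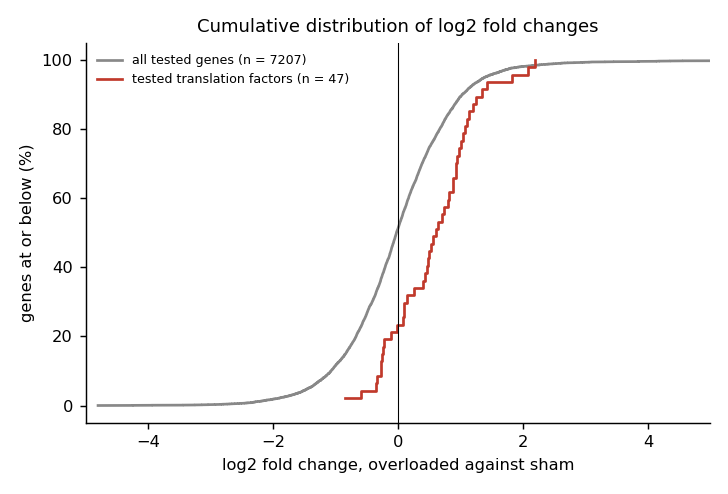
Cumulative share of genes (y axis, percent) at or below each log2 fold change of overloaded against sham (x axis), for 47 tested translation factors and for all 7207 tested genes; 16 genes above 5 lie outside the plotted range. The curve of the factors lies to the right of that of all genes over most of its range, with medians of 0.61 and -0.02, and meets it near the top.

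Among the factors of start codon selection and subunit joining, 3 of 8 rose, 1 fell and 4 were not called, against 15.0% higher and 14.3% lower of all tested genes. Eif6 (chromosome 2, 155819832 to 155826925, GRCm38) encodes a protein that binds the large ribosomal subunit, keeps it from joining too early and is needed for its assembly. It stood at 41.5, 39.4 and 49.8 CPM in sham libraries 1 to 3 and at 146, 173 and 150.4 CPM in overloaded libraries 1 to 3. Every overloaded library was thus above every sham library, and the log2 fold change was 1.83 with a standard error (SE) of 0.25 (adjusted p = 1.73e-06 by edgeR), the smallest adjusted p of the set. Eif1ax (chromosome X, 159372178 to 159389928) encodes eIF1A, which helps the small subunit scan. Its CPM were 100.2, 108 and 87.5 in sham and 184, 203 and 193 in overloaded libraries, a log2 fold change of 0.98 (SE 0.23, adjusted p = 0.0013 by edgeR). The libraries of each group lay close together and the groups were well apart. The related Eif1a was at 158 ± 25.4 and 214 ± 26.4 CPM and was not called (log2 fold change 0.43, 95% interval -0.02 to 0.87). Eif1ad, which codes for a protein with an eIF1A-like domain, rose from 12.9, 10.4 and 12.1 CPM to 24.0, 36.4 and 31.2 CPM (log2 fold change 1.34, SE 0.41, adjusted p = 0.0143 by edgeR, and 0.0514 without overloaded replicate 2).

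Eif1 moved the other way. It encodes eIF1, which enforces the choice of the correct start codon (chromosome 11, 100319885 to 100322096). Its CPM were 1552, 1512 and 1222 in sham and 861, 1036 and 958 in overloaded libraries, a fall to 0.666 of the sham level (log2 fold change -0.59, SE 0.19, adjusted p = 0.022 by edgeR). The groups did not overlap, but the call was lost without sham replicate 1 (adjusted p = 0.1003 by edgeR), sham replicate 2 (0.0928), overloaded replicate 1 (0.0911) or overloaded replicate 3 (0.0534). Its close relative Eif1b stood at 68.7, 104 and 79.4 CPM in sham and 139, 117 and 112 CPM in overloaded libraries and was not called (log2 fold change 0.57, adjusted p = 0.0784 by edgeR). Eif5, which encodes the activator of eIF2's GTPase, was at 268 ± 16.8 and 210.2 ± 24.1 CPM, with a 95% interval of its log2 fold change from -0.77 to 0.07. Eif5b, the gene of the joining GTPase, was at 184 ± 60.1 and 257 ± 52.3 CPM and was not called, except without sham replicate 1 (adjusted p = 0.0244 by edgeR). Of the 50-base stretches in the last 500 bases of its longest coding transcript, 42.1% occur in another gene's transcripts, and its exons overlap Rev1, so its count depends on how such reads were assigned.

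The genes of eIF2, the carrier of the initiator tRNA, gave 2 called higher of 3 tested, against 15.0% higher of all tested genes. Eif2s1 encodes the alpha subunit, the target of the stress kinases (chromosome 12, 78861819 to 78887010). Its CPM were 64.4, 47.7 and 32.3 in sham and 119, 89.0 and 133 in overloaded libraries, a log2 fold change of 1.24 (SE 0.28, adjusted p = 0.000895 by edgeR). Eif2s2, the gene of the beta subunit, stood at 80.2, 66.4 and 82.1 CPM and then at 129, 147 and 163 CPM, a log2 fold change of 0.93 (SE 0.24, adjusted p = 0.00338 by edgeR). Neither gene's groups overlapped. The gamma subunit is encoded by an X-linked and a Y-linked gene. Eif2s3x fell below the count minimum with 3 sham and 7 overloaded counts, and Eif2s3y had 83 and 99 counts and was not called (42.5 ± 14.0 and 36.6 ± 0.334 CPM, log2 fold change -0.22, adjusted p = 0.65 by edgeR).

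The exchange factor eIF2B, which returns eIF2 to its active form, was sparsely counted. Only Eif2b1, the alpha subunit gene, was tested, and it rose from 22.9, 22.8 and 21.5 CPM to 33.7, 38.9 and 56.7 CPM (log2 fold change 0.93, SE 0.35, adjusted p = 0.0415 by edgeR). The call was lost without any of the sham replicates (adjusted p = 0.0688 by edgeR, 0.0809 and 0.107) and without overloaded replicate 3 (0.205). Eif2b5, the gene of the catalytic subunit, had a total of 10 sham and 39 overloaded counts, or 7.16, 4.15 and 4.04 CPM against 21.2, 11.3 and 9.25 CPM. It was too low for the test, although its groups did not overlap. Sham and overloaded counts were 11 and 41 for Eif2b2 (mean CPM 5.51 and 14.8), 19 and 39 for Eif2b3 (10.2 and 14.4), and 14 and 25 for Eif2b4 (7.12 and 9.31). Of the genes for other factors that deliver the initiator tRNA, Eif2a was at 77.1 ± 14.6 and 81.7 ± 22.0 CPM and was not called, and Eif2d had 13 and 28 counts.

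The largest complex, eIF3, coordinates the other factors on the small subunit. The test called 5 of its 13 tested genes higher, 0 lower and left 8 uncalled, with 11 log2 fold changes above 0 and a median of 0.53. Of all tested genes, 15.0% were called higher, 14.3% lower, and 48.8% lay above 0. Eif3i (chromosome 4, 129591960 to 129600648) stood at 71.6, 64.3 and 68.6 CPM in sham and at 105, 179 and 168 CPM in overloaded libraries, a log2 fold change of 1.13 (SE 0.25, adjusted p = 0.000938 by edgeR). Its 3 sham libraries were nearly equal, and overloaded library 1 was the lowest of its group. Eif3g (chromosome 9, 20894349 to 20898623) was at 41.5, 22.8 and 39.0 CPM and at 82.7, 61.4 and 83.3 CPM, a log2 fold change of 1.11 (SE 0.30, adjusted p = 0.00529 by edgeR). The products of these genes, with that of Eif3b, form a module at the edge of the complex. Eif3c, whose product is a core subunit (chromosome 7, 126546455 to 126566411), was at 103, 135 and 132 CPM and at 213, 227 and 241 CPM, a log2 fold change of 0.88 (SE 0.22, adjusted p = 0.00269 by edgeR). Eif3g lost its call after thinning to equal depth (adjusted p = 0.0819 by edgeR). With the receptor read share as a covariate, Eif3g (0.292) and Eif3c (0.066) were not called, while Eif3i was.

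The other eIF3 genes had larger adjusted p-values by edgeR. Eif3j1, the gene of a loosely bound subunit, rose from 43.8 ± 4.83 to 77.1 ± 10.9 CPM (log2 fold change 0.82, adjusted p = 0.0251 by edgeR, and 0.0593, 0.0925 and 0.0889 without sham replicate 2, sham replicate 3 or overloaded replicate 1). Eif3e rose from 39.5 ± 10.7 to 67.2 ± 17.8 CPM (log2 fold change 0.80, adjusted p = 0.0463 by edgeR) with overlapping groups, and lost the call without sham replicate 1 (0.113), sham replicate 3 (0.162), overloaded replicate 1 (0.210) or overloaded replicate 3 (0.0660). Eif3l just missed the threshold at 41.7 ± 5.82 and 69.4 ± 12.7 CPM (adjusted p = 0.0533 by edgeR), and passed it without overloaded replicate 1 (0.0345). Eif3a, the gene of the largest core subunit, was at 322, 566 and 363 CPM in sham and 639.6, 359.9 and 488 CPM in overloaded libraries, with overlapping groups and a 95% interval of its log2 fold change from -0.22 to 0.73. Eif3b, Eif3d, Eif3f, Eif3h, Eif3k and Eif3m were not called, with log2 fold changes from -0.33 in Eif3m to 0.53 in Eif3d. Eif3j2 was counted 0 times in sham and 5 times in overloaded libraries. The last 500 bases of the longest coding transcript share 50-base stretches with transcripts of other genes to 50.3% in Eif3m, 30.4% in Eif3e, 20.8% in Eif3h and 19.3% in Eif3j1, so their counts depend on how such reads were assigned. For 36 of the 47 tested factors no such stretch was shared.

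**Figure D3:**
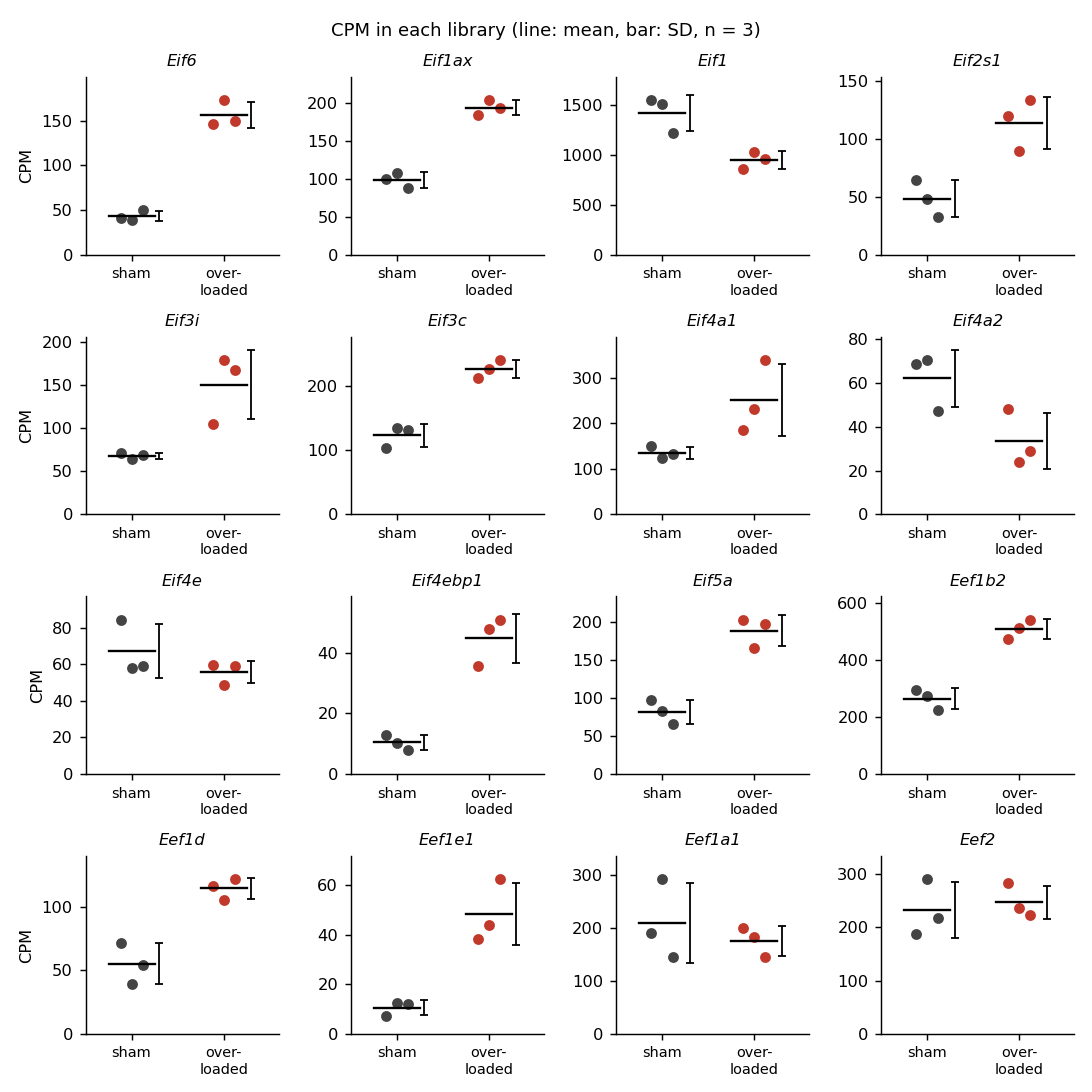
CPM (y axes, from 0, scaled per gene) in each of 3 sham and 3 overloaded libraries (x axes) for 16 translation factors; points are libraries, lines are means and bars are SD. The groups do not overlap for Eif6, Eif1ax, Eif1, Eif2s1, Eif3i, Eif3c, Eif4a1, Eif4ebp1, Eif5a, Eef1b2, Eef1d and Eef1e1, and they overlap for Eif4a2, Eif4e, Eef1a1 and Eef2.

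Of the 10 tested cap-binding eIF4 genes, 2 rose, 1 fell and 7 missed the call, shares near the 15.0% higher and 14.3% lower of all tested genes, with a median log2 fold change of 0.25. Eif4e, the gene of the cap-binding protein itself (chromosome 3, 138526179 to 138559696), was at 84.5, 58.1 and 59.2 CPM in sham and 59.6, 48.9 and 59.0 CPM in overloaded libraries. It was not called (log2 fold change -0.27, SE 0.28, 95% interval -0.83 to 0.29, adjusted p = 0.499 by edgeR), and sham library 1 was the only library that stood apart. Eif4g1, the gene of the scaffold that bridges cap and ribosome, was at 129, 129 and 144 CPM and at 265, 127 and 219 CPM, with overloaded library 2 below the sham range (log2 fold change 0.61, adjusted p = 0.0581 by edgeR). Without overloaded replicate 2 it was called higher (log2 fold change 0.87, adjusted p = 0.00607 by edgeR). Eif4g3, which encodes a second scaffold, was at 303 ± 49.9 and 252 ± 65.7 CPM, and Eif4g2, whose product lacks the cap-protein site and serves cap-independent initiation, at 472 ± 110.0 and 621 ± 39.0 CPM, neither of them called. Eif4e2, encoding a cap-binding relative that represses translation, was at 48.2 ± 18.9 and 76.8 ± 14.0 CPM and was not called, except as higher without sham replicate 3 (adjusted p = 0.0255 by edgeR). Eif4e3 and Eif4b were not called, with log2 fold changes of -0.01 and 0.09, and Eif4e1b had 2 and 1 counts.

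The paralogous helicases of the eIF4 group parted. Eif4a1 (chromosome 11, 69666936 to 69672423) encodes the helicase that unwinds messenger RNA leaders in most growing cells. Its CPM were 150.3, 124 and 132 in sham and 186, 231 and 339 in overloaded libraries, a log2 fold change of 0.89 (SE 0.23, adjusted p = 0.00429 by edgeR, and 0.0623 without overloaded replicate 3). The overloaded libraries differed among themselves more than the sham ones. Eif4a2 (chromosome 16, 23107444 to 23114136), the gene of the closely related second helicase, fell from 68.7, 70.5 and 47.1 CPM to 48.1, 23.8 and 28.9 CPM, a log2 fold change of -0.85 (SE 0.32, adjusted p = 0.0431 by edgeR). Overloaded library 1 lay just above sham library 3, so the groups overlapped. The call of Eif4a2 was lost without sham replicate 1 (adjusted p = 0.154 by edgeR), sham replicate 2 (0.135), overloaded replicate 2 (0.170) or overloaded replicate 3 (0.147). Eif4h, which encodes a helper of the helicase, rose from 206, 106 and 139 CPM to 205, 217 and 323 CPM (log2 fold change 0.71, adjusted p = 0.0275 by edgeR). Its call was lost without sham replicate 2 (0.157), sham replicate 3 (0.101) or overloaded replicate 3 (0.177). Other annotated genes overlap the exons of both, 2 on the same strand for Eif4a1, and 6 on the same strand, among them Snora81 and Snord2, and Rfc4 on the other for Eif4a2, which leaves the assignment of their reads uncertain. Among the other called factors, exons of Eif1ad overlap Banf1, those of Eif6 overlap Gm16098, and those of Eif3j1 overlap Gm47314 and Spg11.

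Pairs of related genes were compared within each library as the log2 ratio of their counts, for the 6 listed pairs in which both genes were tested. The ratio of Eif4a1 to Eif4a2 was 1.12, 0.81 and 1.47 in sham and 1.94, 3.24 and 3.52 in overloaded libraries, a difference of 1.77 between the group means. The ratio of Eif4ebp1 to Eif4ebp2 was -3.06, -3.14 and -3.98 in sham and -1.01, -1.05 and -1.25 in overloaded libraries, a difference of 2.29. In both pairs every overloaded library was above every sham library. Eif4ebp1 had only 9, 5 and 6 counts in sham libraries 1 to 3 and entered the test through its overloaded counts. The size of its ratio difference therefore rests on few sham counts, and it was smaller with a pseudocount of 5. The ratio of Eif1 to Eif1b fell by 1.14, from a mean of 4.09 ± 0.34 to 2.95 ± 0.29 (SD, n = 3). Eif1a to Eif1ax (0.67 ± 0.26 and 0.14 ± 0.13) and Eif4g1 to Eif4g3 (-1.17 ± 0.26 and -0.34 ± 0.42) were also without overlap. For these 5 pairs the exact two-sided permutation test gave p = 0.1, the smallest it can give, or 0.12 after Benjamini-Hochberg adjustment over 6 pairs. The ratio of Eif4e to Eif4e2 overlapped between groups (exact permutation p = 0.2). Several genes of these pairs were called in the same libraries, so the ratios are not separate evidence.

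**Figure D4:**
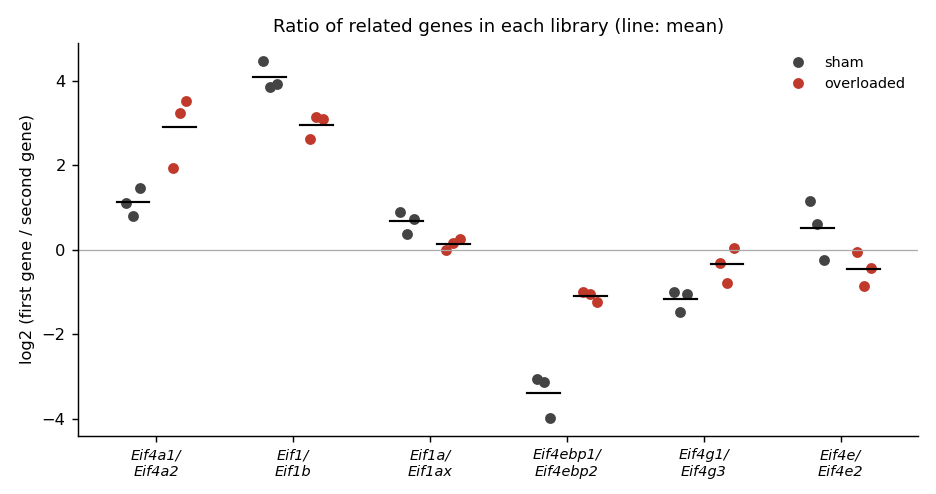
Log2 ratio of the counts of the first to the second gene (y axis) for 6 pairs of related genes (x axis) in each sham and overloaded library; points are libraries and lines are group means. Of the 6 pairs, 5 show no overlap between the groups, and the difference is widest for Eif4ebp1/Eif4ebp2 (means of -3.39 and -1.10). Eif4ebp1 had under 10 counts in every sham library.

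The repressors of eIF4E, which compete with the scaffold for the cap-binding protein until mTORC1 phosphorylates them, differed from each other. Eif4ebp1 (chromosome 8, 27260329 to 27276674) stood at 12.9, 10.4 and 8.07 CPM in sham and at 35.6, 47.7 and 50.9 CPM in overloaded libraries, or 20 and 119 counts in all. Its log2 fold change of 2.08 (SE 0.40, adjusted p = 0.000166 by edgeR) was the second largest of the tested set, which it entered through its overloaded counts. Eif4ebp2 (chromosome 10, 61428491 to 61452661) was at 113, 99.6 and 137 CPM and at 72.1, 99.1 and 121 CPM, with overlapping groups, and was not called (log2 fold change -0.27, SE 0.25, 95% interval -0.77 to 0.23). Eif4ebp3 and Eif4a3l1 had 0 counts in all 6 libraries. All 50-base stretches near the 3′ end of Eif4ebp3, and 56.3% of those of Eif4a3l1, occur in transcripts of other genes, so reads of these genes may have been assigned elsewhere or dropped, and no upper limit is given. Eif4a3 encodes a helicase of the exon junction complex, which marks spliced messenger RNA, and is an initiation factor in name only. It rose from 32.9, 47.7 and 17.5 CPM to 59.6, 86.5 and 109 CPM (log2 fold change 1.42, SE 0.33, adjusted p = 0.00148 by edgeR), and 29.3% of the 50-base stretches near its 3′ end occur in other transcripts. Eif4a3l2 had 0 and 4 counts.

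Of the elongation factors, the subunits that recharge eEF1A rose while eEF1A and eEF2 themselves were not called. Eef1b2 (chromosome 1, 63176825 to 63180486) encodes the exchange subunit. Its CPM were 295, 274 and 223 in sham and 472, 510.4 and 540.2 in overloaded libraries, a log2 fold change of 0.94 (SE 0.20, adjusted p = 0.00065 by edgeR). Eef1d, the gene of another exchange subunit (chromosome 15, 75894205 to 75909556), was at 71.6, 39.4 and 53.8 CPM and at 116, 105 and 121 CPM, a log2 fold change of 1.04 (SE 0.26, adjusted p = 0.00271 by edgeR). The overloaded libraries were tightly grouped in both genes and none reached the sham range. Eef1g, the gene of the structural subunit, was at 15.8, 41.5 and 17.5 CPM and at 59.6, 42.6 and 46.3 CPM, a log2 fold change of 1.07 (SE 0.36, adjusted p = 0.0255 by edgeR). Sham library 2 came close to the overloaded libraries, and the call was lost without sham replicate 1 (0.114), sham replicate 3 (0.127) or overloaded replicate 1 (0.105). Exons of Eef1b2 overlap Gm27390 and Ndufs1, and those of Eef1d overlap Naprt, with the same uncertainty.

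Eef1a1, the gene of the carrier itself (chromosome 9, 78478449 to 78489151), was at 190.4, 292 and 145 CPM in sham and 200.1, 183 and 145 CPM in overloaded libraries. The groups overlapped (log2 fold change -0.23, SE 0.24, 95% interval -0.72 to 0.25, adjusted p = 0.501 by edgeR). Of the 50-base stretches in the last 500 bases of its transcript, 40.4% occur in transcripts of 17 other genes, so its count may miss reads or hold reads of its copies, depending on how such reads were treated. Eef1a2, the muscle and nerve form, had 1 count in each group. Eef2 (chromosome 10, 81176631 to 81182498), with no shared stretch, was at 188, 290.4 and 218 CPM and at 283, 236 and 223 CPM (log2 fold change 0.10, SE 0.22, 95% interval -0.34 to 0.54, adjusted p = 0.778 by edgeR). Eif5a (chromosome 11, 69916714 to 69921958) encodes the hypusine-bearing protein that helps ribosomes through difficult stretches. It rose from 97.4, 83.0 and 65.9 CPM to 203, 166 and 197 CPM, a log2 fold change of 1.2 (SE 0.24, adjusted p = 0.000244 by edgeR), while Eif5a2 had 17 and 29 counts (mean CPM 8.61 and 10.9).

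Eef1e1 showed the largest fold change of the tested set (chromosome 13, 38644207 to 38659058). Despite its name it encodes a scaffold protein of the multi-enzyme complex of tRNA synthetases. Its CPM were 7.16, 12.4 and 12.1 in sham and 38.5, 43.9 and 62.5 in overloaded libraries, a log2 fold change of 2.19 (SE 0.40, adjusted p = 9.28e-05 by edgeR), from 20 and 129 counts. Every sham library held under 10 counts of Eef1e1, so its place in the ranking depends on entry through overloaded counts. Eef1akmt1, whose product methylates a lysine of eEF1A, rose from 20.05, 22.8 and 22.9 CPM to 30.8, 55.2 and 47.4 CPM (log2 fold change 1.01, SE 0.35, adjusted p = 0.0292 by edgeR). It kept its call without overloaded replicate 1 and lost it without any other library (adjusted p from 0.0590 to 0.115). The other methyltransferase genes Eef1akmt2, Eef1akmt3, Eef1akmt4 and Eef1aknmt were below the count minimum, with 24, 12, 8 and 13 sham and 31, 38, 32 and 36 overloaded counts. Of the 17 factors too low to test, 12 had a higher mean CPM in overloaded libraries, 3 a lower one and 2 no count. The matching share over all untested genes was not determined, and these factors held at most 58 counts each. No direction was read from them.

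Sequences around annotated starts were examined for features that the choice of genes did not use. RefSeq promoter windows on GRCm38.p6, from 250 bases before to 50 bases after an annotated start, were matched by symbol for 47 of the 64 genes, and Eef1akmt1, Eef1akmt3, Eef1d, Eef1g, Eif1a, Eif2b3, Eif3e, Eif3h, Eif3i, Eif3j2, Eif4a3l2, Eif4e1b, Eif4e3, Eif4ebp1, Eif4ebp3, Eif4g2 and Eif6 had none. The E-box CACGTG reads the same on both strands and is the binding word of Myc among other factors. It was present for 13 of 47 genes (27.7%), against 8.09% of all genes in the promoter table. Of the 36 tested factors with a window, 10 had it (27.8%), against 12.2% of the 5645 tested genes with a window. It was found in 3 of 14 genes called higher, 0 of 2 called lower, 7 of 20 not called and 3 of 11 not tested. The following stretches are shown because they include the 3 genes called higher and, beside them, the cap-binding, scaffold and translocation factor genes that were not called. The E-box is in capitals, and each stretch runs 5′ to 3′ on its gene's strand and ends before the annotated start of its window. The stretches of Eif5a, Eif4e and Eif4g1 lie within the annotated span of the gene, and that of Eif4h lies partly within it.
Eif4a1 (chr11:69672580-69672639, minus strand): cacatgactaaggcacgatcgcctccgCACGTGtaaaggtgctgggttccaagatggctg
Eif5a (chr11:69920776-69920835, minus strand, 1 of its 6 starts in the table): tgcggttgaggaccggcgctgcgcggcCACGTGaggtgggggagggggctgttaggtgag
Eif4h (chr5:134639473-134639532, minus strand): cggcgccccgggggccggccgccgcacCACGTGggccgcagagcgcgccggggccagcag
Eif4e (chr3:138527177-138527236, plus strand): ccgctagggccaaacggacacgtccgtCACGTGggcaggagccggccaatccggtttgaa
Eif4g1 (chr16:20672646-20672705, plus strand): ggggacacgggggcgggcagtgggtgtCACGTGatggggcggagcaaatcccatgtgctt
Eef2 (chr10:81176561-81176620, plus strand): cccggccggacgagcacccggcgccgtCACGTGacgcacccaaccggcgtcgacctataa
The motif thus occurred in genes that rose and in genes that were not called, and these counts were not tested.

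A run of pyrimidines at the transcript start marks the class of messenger RNAs whose translation follows mTORC1, to which ribosomal protein and several elongation factor genes belong. The search was for a run of at least 8 letters C or T on the coding strand, lying wholly within 20 bases of the annotated start on either side. Such a run was found for 11 of the 47 genes (23.4%), against 18.4% of all genes in the promoter table. Of the 36 tested factors with a window, 6 had it (16.7%), against 20.1% of the 5645 tested genes with a window. It was present in 0 of 14 genes called higher, 0 of 2 called lower, 6 of 20 not called and 5 of 11 not tested. The search did not require the run to begin at the start itself, and not all 21 genes called higher had a window. These counts therefore do not show which factors belong to that class. The genes with a run that were tested were Eef1a1, Eif3f, Eif3l, Eif2s3y, Eif3m and Eif4e. Of these, 5 are shown as examples, with 20 bases on each side of the start, with the runs in capitals. Annotated starts can differ from those used in these cells and lie within the gene in some cases.
Eef1a1 (chr9:78481705-78481744, minus strand): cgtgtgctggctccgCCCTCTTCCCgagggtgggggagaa
Eif3f (chr7:108934395-108934434, plus strand): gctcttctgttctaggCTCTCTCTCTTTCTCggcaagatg
Eif3l (chr15:79075203-79075242, plus strand): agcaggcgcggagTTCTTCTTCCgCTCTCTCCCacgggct
Eif2s3y (chrY:1010575-1010614, plus strand): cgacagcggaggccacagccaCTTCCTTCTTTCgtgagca
Eif4e (chr3:138527248-138527287, plus strand): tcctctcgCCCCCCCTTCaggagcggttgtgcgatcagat
None of the 6 genes was called, with log2 fold changes from -0.33 in Eif3m to 0.74 in Eif3l. In Eif3f and Eif4e the run and the E-box occurred together without overlapping.

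The other genes of the translation pathway, formed 8 lists of 65 genes. Of 40 tested, 5 were higher (12.5%), 5 lower (12.5%) and 30 not called, close to the 15.0% and 14.3% of all tested genes, and their median log2 fold change was 0.12. Called shares in the single lists below, of 1 to 8 tested genes each, are to be read against the same 29.3% called in either direction. Among regulators of eIF2, 1 of 7 tested genes fell (14.3%, the same as over all tested genes) and 0 rose. Ppp1r15a, which directs the phosphatase that reactivates eIF2, fell from 343 ± 8.39 to 172 ± 38.9 CPM (log2 fold change -1.0, SE 0.21, adjusted p = 0.00062 by edgeR), and the eIF2 kinase gene Eif2ak3 was not called (log2 fold change -0.14). Of 4 tested targets of the stress response that eIF2 controls, Atf3 fell from 880.0 ± 46.5 to 218 ± 54.0 CPM (log2 fold change -2.01, SE 0.21, adjusted p = 1.81e-08 by edgeR). Sesn2, an inhibitor of mTORC1 signalling, rose from 18.7 ± 4.25 to 39.6 ± 15.0 CPM with overlapping groups (adjusted p = 0.0271 by edgeR, and 0.0666 to 0.133 without sham replicate 1, sham replicate 3, overloaded replicate 1 or overloaded replicate 3). Atf4, the central factor of that response, was at 961 ± 25.1 and 1013 ± 175 CPM and was not called.

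In the mTORC1 list, 1 of 8 tested genes rose and 2 fell, or 37.5% called against 29.3% of all tested genes. Deptor, which encodes an inhibitor of mTOR, fell from 100.9 ± 10.99 to 36.1 ± 11.4 CPM (log2 fold change -1.49, SE 0.28, adjusted p = 0.000151 by edgeR). Pdcd4, the gene of an inhibitor of the eIF4A helicase, fell from 106 ± 21.4 to 63.4 ± 15.5 CPM (log2 fold change -0.74, adjusted p = 0.0321 by edgeR), but not without sham replicate 1 (0.187), sham replicate 2 (0.0854), overloaded replicate 1 (0.0631) or overloaded replicate 3 (0.180). Larp1, which encodes a binder of pyrimidine-run messenger RNAs, rose from 24.0 ± 5.22 to 46.8 ± 8.57 CPM (log2 fold change 0.98, adjusted p = 0.028 by edgeR), but not without sham replicate 1 (0.0906), sham replicate 3 (0.0671) or overloaded replicate 3 (0.113). The poly(A)-binding protein gene Pabpc1 rose from 295 ± 22.9 to 537 ± 109.6 CPM (log2 fold change 0.86, SE 0.21, adjusted p = 0.00196 by edgeR), 1 of 4 tested in its list. In termination and recycling 2 of 7 rose. Gspt1, the gene of the release factor GTPase, went from 92.8 ± 9.88 to 173 ± 14.1 CPM (adjusted p = 0.0032 by edgeR), and Mcts1, a recycling factor gene, from 30.6 ± 5.99 to 58.3 ± 7.62 CPM (adjusted p = 0.0251 by edgeR, and 0.0638, 0.104 and 0.0877 without sham replicate 2, sham replicate 3 or overloaded replicate 3). Among accessory helicases and ABC proteins 1 of 5 fell, Ddx3x, an initiation helicase gene (log2 fold change -0.59, adjusted p = 0.0413 by edgeR), which kept its call without overloaded replicate 1 and lost it without any other library (0.0840 to 0.239). In the list of enzymes that modify eIF5A and eEF2, 0 of 4 tested genes were called by edgeR, with a median log2 fold change of 1.04. Dohh (14 sham and 45 overloaded counts) and Dph5 (16 and 57) entered the test mainly through their overloaded counts. How far the count filter shaped this median was not tested. In the selenocysteine list the only tested gene, Secisbp2l, was not called.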

How the data were processed

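The authors deposited raw read counts per Ensembl gene, not normalised, for 6 libraries. The genome build GRCm38 and 4 tools, featureCounts 2.0.1, HISAT2 2.2.1, DESeq2 1.28.1 and Trim Galore 0.6.6, are named per the submitters' processing notes. The sources used here do not give the strand setting, how multi-mapping reads were handled or whether molecular identifiers were used. The contrast of overloaded against sham was fitted in R 4.3.3 by edgeR 4.0.16 (quasi-likelihood F test, TMM, robust dispersions, Benjamini-Hochberg over 7207 genes, called at an adjusted p under 0.05) on genes kept by filterByExpr (at least 10 counts, total at least 15). SE is the log2 fold change divided by the square root of F. CPM does not correct for transcript length, and levels were not compared between genes. Named were called genes with the 12 largest changes or 12 smallest p-values, 12 genes whatever their values, and other called ones. Members, lists and alternatives were chosen with earlier results of these data known. The alternatives used DESeq2 1.42.0, limma 3.58.1, other filters and scalings, thinning, a replicate block, a covariate and each library left out. Pair ratios used a pseudocount of 0.5. Libraries of a group differed by more than sampling noise (chi-square per degree of freedom 4.17 to 7.97). Positions and exon overlaps are from GENCODE M21 (GRCm38), which held all 64 genes, and 18 of the 47 tested overlap another gene's exons. On simulated data with 200 changed genes, the fit recovered 0% at a 1.5-fold change, 42.5% at 2-fold and 82% at 4-fold. False calls numbered 2, 6 and 19. Small changes can therefore go uncalled. One further marker list is not reported here.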

Additional observations from a re-analysis of the deposited data

How the results depend on the processing

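With the receptor read share as a covariate, the count of genes called in all moved from 2111 to 947, of factors called higher from 21 to 8 and of factors called lower from 2 to 0. Factors called lower numbered 1 with DESeq2, 1 after thinning to equal depth and 0 with edgeR without the count filter (2 at an unadjusted p under 0.05). Otherwise 14 to 21 factors were higher. The 14 came after thinning to equal depth, of 46 tested, where 13.4% of all tested genes were higher. Thinning lost the calls of Eif1ad, Eif2b1, Eif3e, Eif3g, Eif3j1, Eif4h and Eef1akmt1. At a minimum count of 30, 17 of 39 tested factors were higher, against 21.4% of all tested genes. Deviations from the group mean correlated across genes at 0.0161, 0.0143 and 0.022 for same-numbered libraries, and at -0.0268 to 0.00859 for the other combinations. All were near 0, which does not show that pairing is absent, and the numbers were not taken as pairs. The replicate block gave 19 higher and 2 lower factors, 2036 called genes and a median log2 fold change of 0.57 for the factors. Leaving out 1 library at a time gave 1595 to 2019 called genes, 16 to 21 factors higher and 0 to 2 lower, and a median of 0.54 to 0.77. Of all tested genes, 14.5% were higher with the replicate block and 11.2% to 14% with 1 library left out. The difference in the Eif4ebp1 to Eif4ebp2 ratio was 1.74 with a pseudocount of 5. No called factor changed sign, but 8 factors that were not called did. With the covariate the log2 fold changes of Eif2a, Eif3k, Eif3m, Eif4e3 and Eef1a1 were -0.31, 0.25, 0.22, 0.029 and 0.28. Eif4e3 was at 0.068 without the filter and 0.36 after thinning, and Eif3h at -0.067 after thinning. With 1 library left out, the values ranged from -0.36 to 0.13 in Eif2s3y, -0.038 to 0.30 in Eif2a, -0.42 to 0.18 in Eif3k, -0.90 to 0.057 in Eif3m, -0.059 to 0.066 in Eif4e3, -0.076 to 0.24 in Eif4b and -0.42 to 0.076 in Eef1a1. The cause of these shifts was not tested. The median SE of the log2 fold change was 0.26 for tested factors and 0.33 for all tested genes, so a factor that was not called may still differ.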

Other observations

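The 13 table rows whose names match the factors but which are not protein-coding held 12 counts in all over the 6 libraries, the most in 1 row being 3 (Eif1-ps2 and Eif3s6-ps4). The sources used here do not say how reads shared between a gene and its copies were assigned.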
